A study of Mus musculus with 80 samples.

Results

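The comparison described here set the ribosome-bound RNA of magnetically isolated microglia against the whole RNA of the same cells. Its members were chosen by library title: 4 autoMACS-TRAP libraries and 4 autoMACS-Input libraries, 8 of the 80 libraries of the series, from mice 66, 67, 72 and 73. Every mouse carried Cx3cr1(Jung)-cre/Ert2+;NuTRAP+ and received tamoxifen as a young adult, and there was no untreated or Cre-negative group among the 8 libraries. One hemisphere of each brain was dissociated with enzymes without transcription or translation inhibitors, and CD11b+ cells were taken on magnetic beads in an autoMACS separator. The cells were lysed, an aliquot of the homogenate became the Input library, and the rest went through an anti-GFP pull-down to give the TRAP library, so that both libraries of a mouse came from the same cells. Beads select on CD11b, which neutrophils, monocytes and macrophages carry as well, and not on eGFP, whereas the tag follows the Cx3cr1 promoter, which is also active in macrophages at the borders of the brain.

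Translating ribosome affinity purification (TRAP) recovers mRNA through a tagged ribosomal protein. In NuTRAP mice Cre excises a stop cassette, after which the cell makes eGFP fused to the large-subunit protein L10a, and a biotin acceptor peptide with mCherry fused to the nuclear envelope protein RANGAP1. The pull-down therefore keeps transcripts attached to ribosomes of recombined cells and leaves transcripts of untagged cells, nuclear RNA and ribosome-free mRNA behind. Microglia are the resident macrophages of the brain parenchyma and are known for phagocytosis, a large lysosomal compartment and complement production.

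Total counts were 18319392 to 20168116 in TRAP and 7129464 to 18514919 in Input, where the libraries of mice 72 (7129464) and 73 (8818185) were the smallest. Input 72 stood apart: its log2 levels correlated with those of the other libraries at Pearson's r between 0.885 and 0.94, against 0.95 to 0.991 for all other pairs of libraries. The study's quality sheet also lists a lower RNA integrity for Input 72 and Input 73, and the part of this in the results was not tested. Values without mouse 72 are given beside the genes and lists they move. The Y-linked Ddx3y lay between 100.5 and 112 CPM (counts per 1e6 counts of the library, scaled for composition) in both libraries of mice 66 and 67 and at 1.3 CPM or less in those of 72 and 73, which separates these 2 sets of mice but not the mice within a set. Deviations from the group mean in Input 72 correlated with those in TRAP 73 at 0.531 and with those in TRAP 72 at -0.155. The pairs were kept as labelled, and whether libraries of mice 72 and 73 were exchanged was not tested. CD11b+ microglia were recovered as labelled: Cx3cr1, Tmem119, P2ry12, Csf1r, Siglech, Trem2 and C1qa were all measured in every library, the lowest value being 835 CPM for Siglech in Input 72.

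Far more genes were lower than higher after the pull-down. Of 12027 genes tested in 15919 listed, 882 (7.33%) were called lower in TRAP and 2 (0.0166%) higher, by edgeR's quasi-likelihood test with the mouse as a block. A call needed a fold change of more than 2 together with a false discovery rate (FDR) below 0.1. The median log2 difference over all genes was -0.02, and the median of the 882 was -2.24. Of the 882, 868 had the same sign in all 4 mice, and in 710 every Input library lay above every TRAP library, which held for 14.1% of all genes tested. The reverse, every TRAP library above every Input library, held for 12.5%. Without the fold threshold 636 genes (5.29%) were higher and 1524 (12.7%) lower, so the higher side consisted of small differences: their median was 0.46. These counts without the fold were 1913 (15.7%) and 2123 (17.5%) of 12166 genes without mouse 72, but 1 and 228 without mouse 66, 1 and 237 without mouse 67, and 5 and 671 without mouse 73, so that the passes upwards described here needed mice 66, 67 and 73. The count of 882 depended on the mice: it was 208 without mouse 66, 213 without mouse 67, 892 without mouse 72 and 525 without mouse 73. Of the called genes named in what follows, Cxcr2, Enpp2, Ly6c2, Ap1s3, Gas5, Eif5b, Ahnak, Cxcr4, Snhg12 and Mllt11 missed the FDR threshold without mouse 66 and also without mouse 67, as did Neat1 and Itga4 without mouse 66 and Ttr without mouse 67, all with the direction kept. Ap1s3, Eif5b, Itga4 and Mllt11 also missed it without mouse 73. Without mouse 72, Eif5b, Ahnak, Snhg12, Itga4 and Mllt11 fell short of the fold. The percentages over 4 mice are the background of every list count that follows, and 15.7% and 17.5% are that of counts past the FDR without mouse 72.

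The called genes were mostly rare transcripts. Of 612 genes with a mean under 1 CPM, 32.03% were called lower, and of 2996 genes from 1 to 10 CPM, 17.32%. The share was 1.884% of 6370 genes from 10 to 100 CPM and 2.294% of 2049 genes above that. A gene was tested if it had more than 5 counts in every library of at least one group, so a rare gene kept through the Input libraries alone had to be lower in TRAP. The counts of rare genes called lower are for that reason a description of the Input excess and carry no independent support. Of the 882 genes, 223 belonged to the lists of other cell types, and 40 had 3 counts or fewer in every TRAP library. The plot of level against difference has the rare genes of other cells at the lower left, ribosomal protein genes below the fold line at high level, and microglial markers just above 0.

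**Figure D1:**
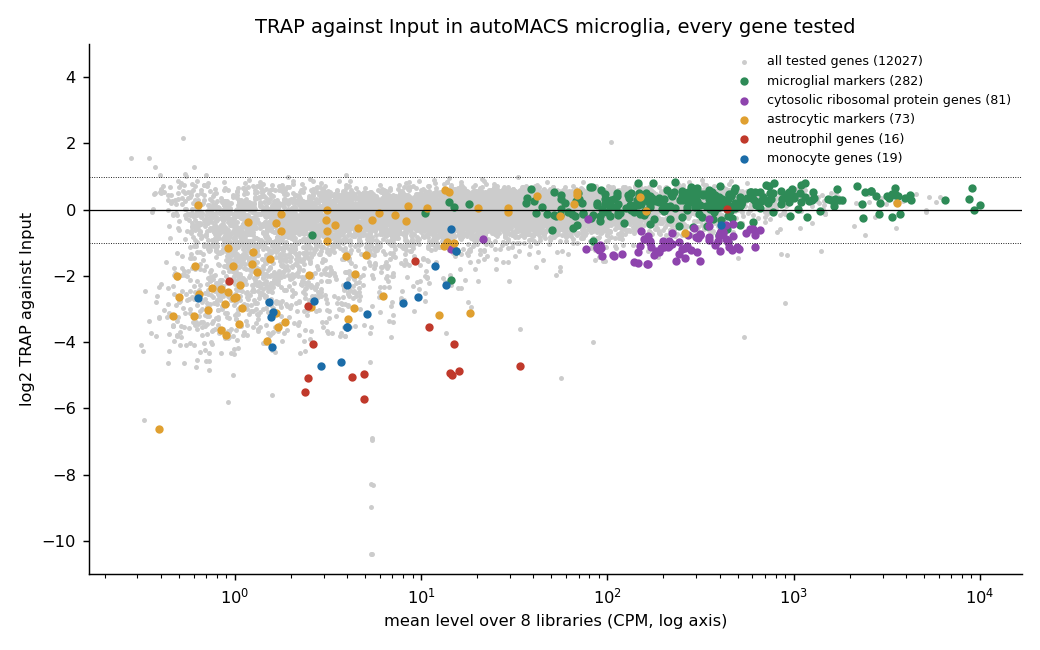
Log2 TRAP against Input (vertical axis) by mean level over 8 libraries in CPM (horizontal log axis) for 12027 genes in grey, with members of 5 lists in colour. Dotted lines mark the fold threshold of 2; 43 of 81 ribosomal protein genes and 15 of 16 neutrophil genes were called below it, and 1 of 282 microglial markers was.

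Neutrophil transcripts had the lowest median of all lists. S100a8, one subunit of the calcium-binding protein calprotectin of neutrophils (chromosome 3, 90669071 to 90670034, mm10), measured 28.7, 37.9, 39.9 and 17.5 CPM in Input of mice 66, 67, 72 and 73, and 0.226, 1.08, 2.06 and 1.05 CPM in TRAP. All Input values lay above all TRAP values, and the log2 difference was -4.86 ± 0.40 (SE, n = 4 pairs, edgeR adjusted p = 0.0036). The log2 difference was -4.73 for its partner S100a9, -5.00 for the iron-binding granule protein Ltf, -4.93 for the granule protein Ngp and -3.54 for haptoglobin, Hp, all called. The chemokine receptor Cxcr2 measured 11.3, 9.11, 82.6 and 10.0 CPM in Input and 0.226, 0.397, 1.14 and 5.44 CPM in TRAP. The groups of Cxcr2 did not overlap, but Input 72 alone held most of its level. Of 20 neutrophil genes, 16 were tested and 15 of these fell, with a median of -4.80. S100a8, S100a9, Ltf and Ngp, at 0.226 CPM or less in TRAP 66, passed the filter through the Input libraries alone. Such genes had to be lower in TRAP, so part of this count and median was set by the filter. The member that did not fall was Csf3r, the G-CSF receptor, at 369 to 508 CPM in Input and 386 to 503 CPM in TRAP (log2 difference 0.01 ± 0.11, adjusted p = 0.94). Csf3r made up most of the list's summed level, which therefore dropped only from 632.6 to 855.3 CPM in Input to 399.3 to 526.7 CPM in TRAP.

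Monocyte transcripts fell as a list. Of 19 monocyte genes, all tested, 17 fell, with a median of -2.78 and medians of -2.71, -3.08, -2.12 and -2.08 in mice 66, 67, 72 and 73. Itgal, the alpha chain of the integrin LFA-1 that leukocytes use to adhere, measured 13.3, 25.2, 13.1 and 38.6 CPM in Input and 1.92, 4.26, 5.10 and 7.13 CPM in TRAP. The groups did not overlap (log2 difference -2.28 ± 0.25, adjusted p = 0.0066). Ccr2, the chemokine receptor of inflammatory monocytes, was called at a log2 difference of -1.26 and Plac8 at -3.55. Ly6c2, the surface antigen that marks the same cells, was rare, at 2.08 to 4.47 CPM in Input and 0 to 0.499 CPM in TRAP. Rare monocyte genes like it were kept through Input alone, so part of the list's count and median was set by the filter. Of 24 lymphocyte and natural killer cell genes 8 were tested and 5 fell, with a summed level of 43.24 to 58.48 CPM in Input and 34.34 to 45.77 CPM in TRAP. The 8 tested genes included rare ones kept through Input alone, and with at least 10 counts in every library the list's median was 0.38. Cd79b, a signalling chain of the B cell receptor, measured 22.3, 16.4, 15.5 and 20.8 CPM in Input and 23.5, 27.6, 24.7 and 23.4 CPM in TRAP, with TRAP above Input in every library, and did not pass the test (log2 difference 0.42, adjusted p = 0.14). Both libraries of a mouse came from the same cells, so these values describe recovery in the pull-down and not numbers of cells.

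Most tested genes in the lists of other brain cells were lower in TRAP, while the summed levels of most of these lists were not. Sparcl1, a matrix protein of astrocytes, measured 15.6, 31.3, 20.4 and 20.7 CPM in Input and 1.02, 2.78, 1.19 and 7.28 CPM in TRAP. The groups did not overlap, and the log2 difference was -3.17 ± 0.45 (adjusted p = 0.013). Ttr, the thyroid hormone carrier that choroid plexus epithelium secretes, measured 99.9, 240, 86.9 and 170 CPM in Input and 1.13, 14.8, 3.53 and 51.7 CPM in TRAP. Every mouse fell in Ttr, to very different depths (log2 difference -4.01 ± 0.68, adjusted p = 0.023). Enpp2, the lysophospholipid-producing enzyme autotaxin of the same epithelium, fell by 3.59 on the log2 scale.

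Among vascular genes, the hypoxia-response factor Epas1, high in endothelium, fell by 2.36 on the log2 scale. The haemoglobin gene Hba-a1 of red blood cells fell by 2.72. Of 73 astrocytic markers tested (138 listed) 32 were called lower, of 116 oligodendrocytic markers (194 listed) 38, of 176 endothelial markers (235 listed) 63, and of 20 neuronal markers (97 listed) 12. Over all genes 7.33% were called lower. In the same order, 59, 77, 125 and 18 of the tested markers had a negative difference. Their medians, in the same order of lists, were -1.36, -0.59, -0.68 and -2.30, beside -0.02 for all genes. All tested genes under 1 CPM had a median of -1.01, and those from 1 to 10 CPM of -0.32. Rare members kept through the Input libraries alone had to be lower in TRAP, so part of these counts and medians was set by the filter. No member of these lists was called higher, beside 0.0166% of all genes, so this does not set the lists apart. Summed over the whole list, astrocytic markers came to 4022 to 5675 CPM in Input and 4131 to 6002 CPM in TRAP, and the groups overlapped. Oligodendrocytic markers came to 3467 to 3991 CPM and 3821 to 3954 CPM, and endothelial markers to 6709 to 8770 CPM and 8479 to 9224 CPM, also with overlap and with the higher mean in TRAP in all 3 lists. A sum is set by the most counted members of a list, so it does not describe the many rare members that fell. Neuronal markers separated, at 124.4 to 226.0 CPM against 71 to 83.01 CPM. Of the defining markers, Gfap lay at 1.95 to 3.94 CPM and Snap25 at 2.78 to 7.28 CPM in Input, and both at 0.399 CPM or less in TRAP. The endothelial markers split. Cldn5 was at 7.67 to 22.7 CPM in Input and 1.14 to 5.19 CPM in TRAP (-2.29). Flt1 was at 9.84 to 17.7 CPM and 3.34 to 8.93 CPM (-1.47), and both were called lower. Pecam1 was at 44.4 to 68.6 CPM in Input and 58.3 to 83.5 CPM in TRAP and was not called.

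**Figure D2:**
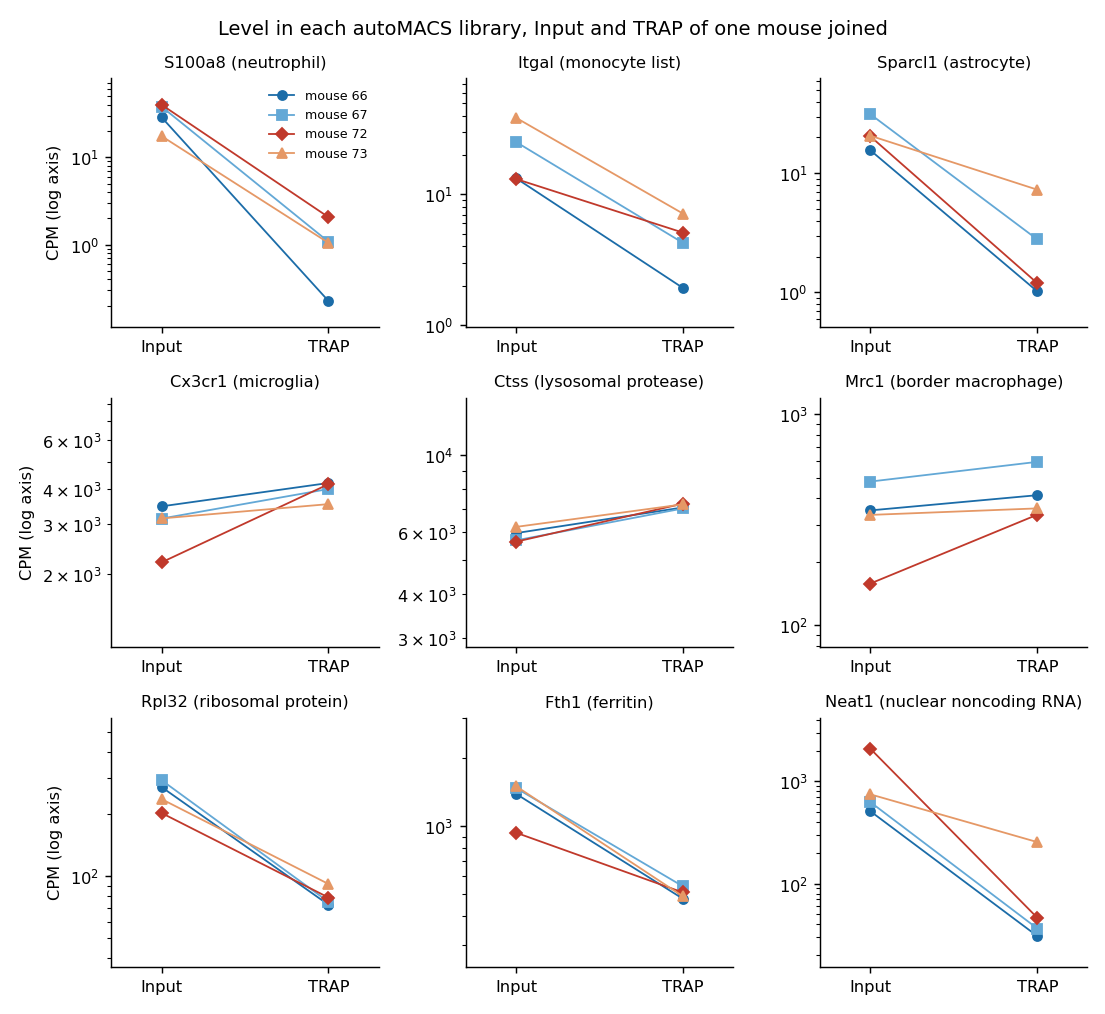
Level of 9 genes in each library in CPM (log axis), with Input and TRAP of one mouse joined by a line. S100a8, Itgal, Sparcl1, Rpl32, Fth1 and Neat1 fell in all 4 mice, and Cx3cr1, Ctss and Mrc1 were higher in TRAP in all 4, with Input 72 the lowest library for Cx3cr1 and Mrc1.

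Microglial transcripts had small positive differences. Cx3cr1, the fractalkine receptor whose locus drives the Cre, measured 3475, 3145, 2198 and 3148 CPM in Input and 4207, 4005, 4165 and 3539 CPM in TRAP. TRAP lay above Input in every mouse and the groups did not overlap, yet the gene narrowly missed the FDR threshold (log2 difference 0.43 ± 0.14, adjusted p = 0.10). The receptor of colony-stimulating factor 1, Csf1r, on which microglia depend for survival, measured 9202, 8178, 3278 and 8468 CPM in Input and 11480, 10850, 11450 and 9452 CPM in TRAP. Input 72 was less than the other Input libraries by a wide margin, and the difference of 0.66 ± 0.26 (adjusted p = 0.15) became 0.32 without mouse 72, with an adjusted p of 0.0015. For Cx3cr1 the values without mouse 72 were 0.29 and 0.0026.

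The other homeostatic genes had differences of similar size. The purinergic receptors P2ry12 and P2ry13 differed by 0.43 and 0.75, the membrane protein Tmem119 by 0.42 and the lipid receptor Trem2 by 0.28, and none passed the FDR threshold over 4 mice. Without mouse 72 all 4 passed it, at 0.19 (adjusted p = 0.052), 0.36 (0.0024), 0.26 (0.0037) and 0.29 (0.012). Tyrobp, the signalling adaptor of Trem2, went the other way, at 555 to 745 CPM in Input and 483 to 577 CPM in TRAP (log2 difference -0.36, adjusted p = 0.084). Of 30 homeostatic genes 28 had a positive difference, 7 passed the FDR alone upwards and 1 downwards, beside 5.29% and 12.7% of all genes, and none reached the fold of 2. The median was 0.39 in all 4 mice and 0.24 without mouse 72, where 22 passed the FDR upwards and 2 downwards, beside 15.7% and 17.5% of all genes. Of 282 microglial markers, chosen in earlier published work, 216 were positive, 55 passed the FDR upwards and 8 downwards, with a median of 0.26. Without mouse 72, 149 passed upwards and 18 downwards, with a median of 0.21. Their summed level was 165700 to 202800 CPM in Input and 219300 to 232400 CPM in TRAP, without overlap.

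The genes tied to the tag and the selection were measured separately. Itgam, which encodes CD11b itself, measured 2118, 2086, 1453 and 2275 CPM in Input and 2892, 2848, 3008 and 2685 CPM in TRAP, and passed the FDR but not the fold (0.55 ± 0.15, adjusted p = 0.069). Ptprc, which encodes CD45, differed by 0.04 ± 0.11 (adjusted p = 0.81). Counts of the host gene Rangap1 rose by 0.76 ± 0.24 (adjusted p = 0.094). Those of Rpl10a, whose protein carries the tag, were 374 to 406 CPM in Input and 284 to 353 CPM in TRAP (-0.30 ± 0.11, adjusted p = 0.12). Rpl10a is itself a ribosomal protein gene, and the list of these genes had a median of -1.06, with members from -1.64 to -0.29. Without mouse 72 the values were 0.46 for Rangap1 (adjusted p = 0.0013) and -0.31 for Rpl10a, which then passed the FDR (adjusted p = 0.019). Whether reads of the transgenes were assigned to these 2 genes was not tested.

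Genes of border-associated macrophages, the long-lived macrophages of meninges, perivascular spaces and choroid plexus, did not fall. Mrc1, the mannose receptor, measured 350, 479, 158 and 333 CPM in Input and 413, 594, 334 and 358 CPM in TRAP. It was higher in TRAP in each mouse, the groups overlapped, and the test was not passed (0.43 ± 0.17, adjusted p = 0.15). The hyaluronan receptor Lyve1 differed by 0.56 and the folate receptor Folr2 by 0.59, neither past the threshold, while the chemokine gene Ccl24 differed by -0.29 (adjusted p = 0.18). Of 18 genes of this list 1 passed the FDR upwards and none downwards, with a median of 0.36. Without mouse 72, 7 passed upwards and none downwards at a median of 0.15, among them Mrc1 (0.24, adjusted p = 0.026), Lyve1 (0.24, 0.066) and Folr2 (0.35, 0.059). The study's macrophage list joins published markers of infiltrating macrophages, of peripheral monocytes and macrophages, and of brain-associated macrophages, so it is a mixed list. Of its 162 genes tested 54 (33.33%) were called lower, beside 7.33% of all genes. The median was -0.62, with medians of -0.53 to -0.67 in single mice.

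**Figure D3:**
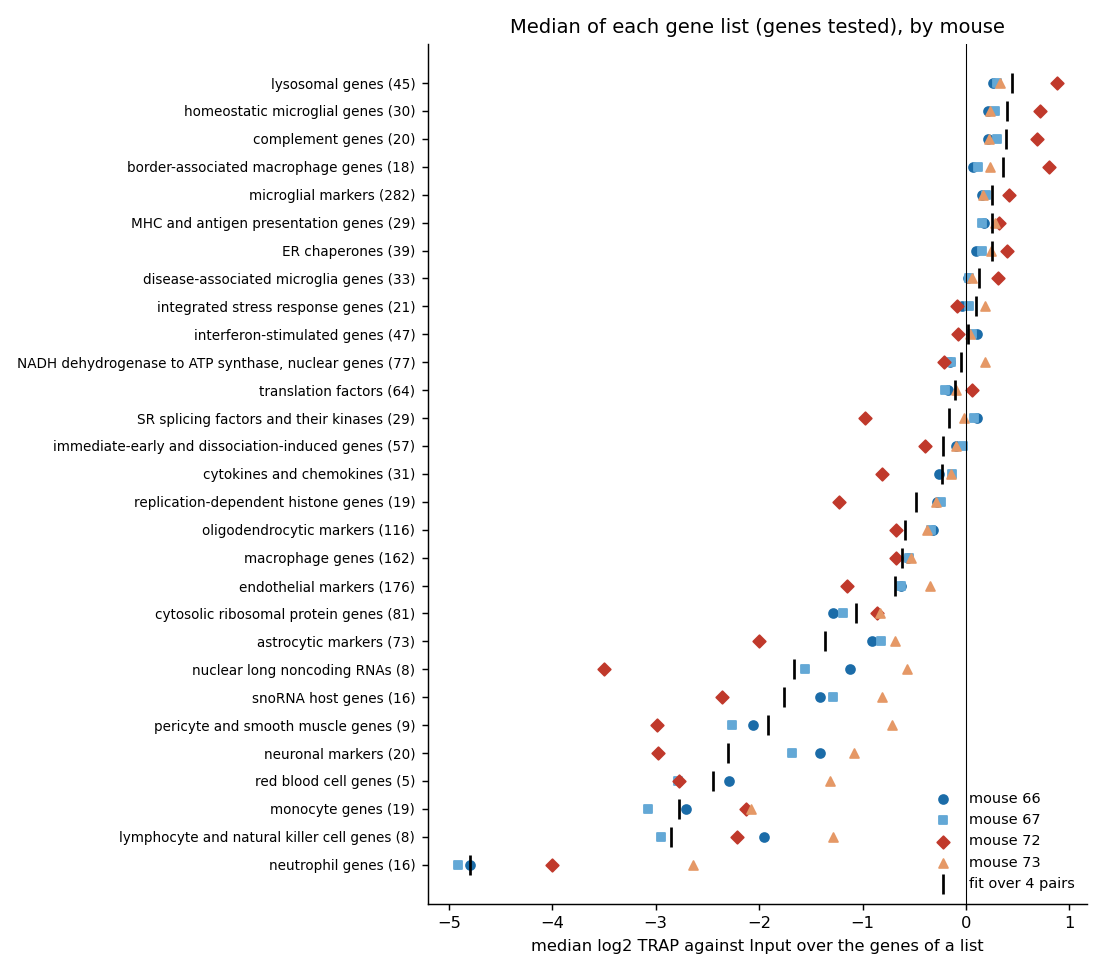
Median log2 TRAP against Input over the tested genes of each list (number in brackets), by mouse in colour and from the fit over 4 pairs as a black bar. Lysosomal genes (0.45) stand at the top and neutrophil genes (-4.80) at the bottom; mouse 72 lies farthest from the other mice for nuclear noncoding RNAs, homeostatic and lysosomal genes.

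Lysosomal genes were the list with the highest median. Of 45 genes 44 had a positive difference and 17 passed the FDR upwards, none of them with a fold of 2, and the median was 0.45 (0.26, 0.30, 0.89 and 0.33 in mice 66, 67, 72 and 73). Ctss, a cysteine protease that trims the MHC class II invariant chain, measured 5970, 5692, 5642 and 6219 CPM in Input and 7068, 7021, 7247 and 7215 CPM in TRAP. The groups were separate and tight, and the difference passed the FDR at 0.28 ± 0.09 (adjusted p = 0.091). The cysteine protease Ctsb differed by 0.59 (adjusted p = 0.10), the arylsulphatase Arsb by 0.78 and the aspartic protease Ctsd by 0.13, with adjusted p of 0.13 and 0.37 for the last 2. The member with a negative difference was Ids, iduronate 2-sulphatase, at -0.38 (adjusted p = 0.29). Without mouse 72 the list's median was 0.33, and 39 of 45 passed the FDR upwards and 1 downwards, beside 15.7% and 17.5% of all genes. The one downwards was Ids, at -0.67 (adjusted p = 0.00036), and Arsb (0.41, adjusted p = 0.0020), Ctsb (0.35, 0.00047) and Ctsd (0.09, 0.079) were among those upwards. Genes of endoplasmic reticulum chaperones had a median of 0.25, with 9 of 39 past the FDR upwards and 2 downwards, and without mouse 72 a median of 0.18 with 18 and 3.

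Complement and antigen-presentation genes split by member. C1qa, a chain of the initiating complement component, measured 3911, 3855, 3620 and 3967 CPM in Input and 4453, 4925, 4607 and 4979 CPM in TRAP, without overlap (0.30 ± 0.09, adjusted p = 0.084). C3, the central component of the cascade, differed by -0.64 (adjusted p = 0.083). Apoe, the lipid carrier that activated microglia secrete, differed by 0.19 (adjusted p = 0.25), and by 0.13 without mouse 72, where it passed the FDR (adjusted p = 0.046).

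H2-Eb1, a chain of the class II molecule, measured 241, 394, 125 and 197 CPM in Input and 135, 190, 101 and 132 CPM in TRAP. It was lower in TRAP in all 4 mice and passed the FDR without the fold (-0.70 ± 0.14, adjusted p = 0.042). The invariant chain Cd74 differed by -0.47 (adjusted p = 0.12), and by -0.64 without mouse 72 (adjusted p = 0.00078). H2-Oa, a subunit of the class II-like peptide-loading modulator, was higher by 0.72 (adjusted p = 0.077). The class I heavy chains H2-D1 and H2-K1, named after their values were seen, differed by 0.39 and 0.33, and both passed the FDR.

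Ribosomal protein mRNAs fell as a list. Rpl32, a protein of the large subunit (chromosome 6, 115805514 to 115808743, mm10), measured 270, 292, 202 and 236 CPM in Input and 72.7, 75.1, 78.8 and 91.6 CPM in TRAP. The groups were far apart, with a log2 difference of -1.64 ± 0.15 (adjusted p = 0.0038). All 81 tested genes of the 83 listed had a negative difference, between -1.64 and -0.29, 79 passed the FDR and 43 also the fold, beside 12.7% and 7.33% of all genes. The summed level was 31490, 33230, 25070 and 29010 CPM in Input of mice 66, 67, 72 and 73 and 14670, 15670, 14590 and 17170 CPM in TRAP. The median of -1.06 did not rest on mouse 72: without it 48 genes were called lower and 80 passed the FDR. The member with the smallest fall was Rpl36al, at -0.29 (adjusted p = 0.13).

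These mRNAs are known as 5' terminal oligopyrimidine (TOP) mRNAs, which begin with a cytosine and a run of pyrimidines and whose translation is switched by mTOR signalling. The annotated starts of some members with a large fall that carry such a run in the RefSeq promoter table (GRCm38.p6) are shown. Not every such member was eligible. Each start is given as 15 bases before and 15 bases from the start site, with the pyrimidine run at position 1 in capitals. They let the run be compared with that of noncoding host genes in the same comparison. A search for C followed by at least 4 further C or T, at the start on the transcript's strand, found the run at 2.505% of all 32851 starts in the table and in 3.094% of 6851 genes of at least 10 CPM. It was present in 23.33% of 60 ribosomal protein genes matched and in 8.333% of 48 translation factor genes. The search was chosen after the values were seen.
Rps21, chr2:180257364-180257393, plus strand: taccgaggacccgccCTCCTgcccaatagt
Rpl35, chr2:39005117-39005146, minus strand: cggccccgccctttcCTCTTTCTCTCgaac
Rpl35a, chr16:33056467-33056496, plus strand: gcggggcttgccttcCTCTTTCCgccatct
Rpl38, chr11:114668565-114668594, plus strand: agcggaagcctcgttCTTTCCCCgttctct
Gas5, chr1:161035151-161035180, plus strand: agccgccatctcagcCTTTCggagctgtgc
Snhg8, chr3:123508322-123508351, minus strand: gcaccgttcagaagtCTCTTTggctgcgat

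The log2 differences of these 6 genes were -1.64 for Rps21, -1.59 for Rpl35, -1.29 for Rpl35a, -1.18 for Rpl38, -1.84 for Gas5 and -1.79 for Snhg8. The run alone did not go with a fall: 192 other genes with it had a median difference of 0.01, against 0.08 for 6547 genes without it. A missing run in this window says only that the annotated start does not hold these letters.

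Tpt1 and Fth1 fell as well. Tpt1, the translationally controlled tumour protein, measured 1289, 1368, 980 and 1277 CPM in Input and 445, 478, 457 and 541 CPM in TRAP (-1.35 ± 0.12, adjusted p = 0.0038). Fth1, the ferritin heavy chain whose translation iron controls through a hairpin in its 5' leader, measured 1391, 1475, 937 and 1503 CPM in Input and 478, 543, 510 and 490 CPM in TRAP (-1.37 ± 0.15, adjusted p = 0.0059). In both genes the groups were well separated. Its partner Ftl1, which carries the same kind of hairpin and was named after its values were seen, fell by 1.25 on the log2 scale (adjusted p = 0.0038).

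Translation factors as a list moved less. Of 64 tested 4 were called lower, 16 passed the FDR downwards and 3 upwards, with a median of -0.11. Without mouse 72, 3 were called lower, and 25 passed the FDR downwards and 11 upwards at a median of -0.12. The elongation factor Eef1a1, at 3076 to 4758 CPM in Input and 2834 to 2923 CPM in TRAP, differed by -0.55 ± 0.14 (adjusted p = 0.059), and the poly(A)-binding protein Pabpc1 by -0.68 (adjusted p = 0.048). The initiation factor Eif5b, the lowest member of at least 10 CPM, was called at -1.42 ± 0.42 (adjusted p = 0.083), but it stood at 661 CPM in Input 72 against 132 to 218 CPM in the other Input libraries, and its difference without mouse 72 was -0.85. Eif4a3, a core protein of the exon junction complex, was higher by 0.52 (adjusted p = 0.055).

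Nuclear noncoding RNAs fell in part. Neat1, the scaffold RNA of nuclear paraspeckles (chromosome 19, 5842302 to 5845478, mm10), measured 510, 626, 2082 and 747 CPM in Input and 30.7, 36.4, 46.3 and 255 CPM in TRAP. All Input libraries lay above all TRAP libraries, and the log2 difference was -3.85 ± 0.62 (adjusted p = 0.020). It was -3.20 without mouse 72 (adjusted p = 0.0015). Malat1, another nuclear-retained RNA, measured 120, 161, 6043 and 324 CPM in Input and 25.2, 20.5, 25.2 and 443 CPM in TRAP. Input 72 and TRAP 73 stood far above the rest in Malat1, mouse 73 had more in TRAP than in Input, and the test was not passed (-2.81 ± 1.28, adjusted p = 0.19). Without mouse 72 Malat1 was called, at -1.53 (adjusted p = 0.066). Tug1, which is both nuclear and cytoplasmic, differed by -0.41 (adjusted p = 0.13), and by -0.54 without mouse 72, which passed the FDR (adjusted p = 0.0086). Of 8 nuclear long noncoding RNAs tested (19 listed) 4 fell, with a median of -1.66 and mouse medians of -1.12, -1.56, -3.50 and -0.57. Without mouse 72, 5 were called and the median was -1.06.

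Host genes of small nucleolar RNAs, whose spliced transcripts are often noncoding and subject to nonsense-mediated decay, fell as a list. Gas5 measured 55.4, 60.7, 166 and 65.6 CPM in Input and 15.4, 18.5, 17.0 and 44.4 CPM in TRAP. The groups did not overlap and the difference was -1.84 ± 0.40 (adjusted p = 0.046), or -1.33 without mouse 72 (adjusted p = 0.0033). Snhg12 fell by 1.21 on the log2 scale. Of 16 host genes tested (21 listed) all were negative and 12 were called, with a median of -1.76, and 9 were called without mouse 72 at a median of -1.34.

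Genes of cell activation by dissociation had small differences of both signs. Fos, an immediate-early transcription factor subunit, measured 3746, 3328, 3641 and 3221 CPM in Input and 4443, 4120, 4639 and 3605 CPM in TRAP. TRAP was higher in every mouse, by 0.27 ± 0.09 (adjusted p = 0.11), which did not pass. Its partner Jun differed by -0.06, the growth-response factor Egr1 by -0.23 and the mRNA-destabilising protein Zfp36 by -0.14, none past the threshold. Jund, another partner of Fos, passed the FDR without the fold at -0.76 ± 0.12 (adjusted p = 0.017), with 2526 to 4013 CPM in Input and 1671 to 1899 CPM in TRAP. The phosphatase Dusp6, which ends ERK signalling, was higher by 0.39 (adjusted p = 0.089). Of 57 immediate-early and dissociation-induced genes 1 was called lower, 6 passed the FDR downwards and 1 upwards, with a median of -0.22. Without mouse 72, 3 of 58 were called lower, and 14 passed the FDR downwards and 10 upwards, with a median of -0.07. Fos then passed upwards (0.26, adjusted p = 0.0031) and Egr1 downwards (-0.25, adjusted p = 0.015).

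Cytokine genes had 4 of 31 called lower and a median of -0.23, and without mouse 72 also 4 and -0.16. Il1b, the precursor of interleukin 1 beta, measured 94.9, 108, 307 and 76.8 CPM in Input and 52.8, 61.1, 113 and 61.1 CPM in TRAP, and passed the FDR without the fold (-0.86 ± 0.18, adjusted p = 0.042). Tumour necrosis factor, Tnf, differed by -0.18 (adjusted p = 0.57), and the chemokine genes Ccl3 and Ccl4 by -0.23 and -0.53, none past the threshold. Without mouse 72 Ccl4 passed the FDR at -0.20 (adjusted p = 0.076). The nuclear receptor Nr4a1 and the stress factor Atf4 differed by -0.45 and -0.38 and did not pass either. Input 72 was the highest Input library for Il1b, Tnf, Ccl3, Ccl4, Nr4a1 and Atf4. Integrated stress response genes (21 tested) had a median of 0.10, interferon-stimulated genes (47) of 0.02, disease-associated microglia genes (33) of 0.13, nuclear genes of oxidative phosphorylation (77) of -0.05, splicing factors of the SR family with their kinases (29) of -0.17 and histone genes (19) of -0.48. Without mouse 72 the median was 0.07 for the SR family, -0.15 for histone genes, -0.02 for the integrated stress response and 0.10 for interferon-stimulated genes.

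Whether TRAP against Input after beads differed from TRAP against Input after sorting on CD11b, CD45 and eGFP was tested in one fit of 32 sorted libraries, with each pair as a block. Tyto (5 pairs) and FACSAria (4 pairs) came from other mice than autoMACS. Mouse and isolation therefore cannot be told apart between beads and these sorts, nor can the day, which is not given. Tyto pairs 69R, 945R and 991R and FACSAria pairs 69L, 945L and 991L share mouse numbers. The paper ran suspensions from single hemispheres in parallel on these sorters, so these pairs may come from the same brains, which was not tested. Both differences also use the same autoMACS libraries, so a gene called in both tests was not found in independent sets of mice. The 32 libraries included 6 of cells that passed through autoMACS and then Tyto, from mice 66, 67 and 73, so these mice entered the fit under separate blocks for each isolation. In this fit 1402 genes (11.1%) were called lower in autoMACS, 1335 (10.6%) in Tyto and 820 (6.49%) in FACSAria. Genes called higher were 13 (0.103%) in Tyto and 14 (0.111%) in FACSAria. The test of the difference called 13 genes (0.103% of 12635) between autoMACS and Tyto and 14 (0.111%) between autoMACS and FACSAria.

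Itgal, the integrin chain described above, was called in both tests. It measured 12.2 to 36.6 CPM in autoMACS-Input, 4.46 to 11 CPM in Tyto-Input and 2.84 to 5.43 CPM in FACSAria-Input. In TRAP the 3 isolations overlapped, at 1.92 to 6.97 CPM, 3.40 to 7.78 CPM and 2.78 to 5.71 CPM. Itgal differed by -0.54 in Tyto and 0.07 in FACSAria, and the autoMACS value minus these was -1.70 ± 0.27 (adjusted p = 0.019) and -2.31 ± 0.30 (adjusted p = 0.0025) on the log2 scale.

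Cxcr4, the receptor of the retention chemokine CXCL12, measured 19.1, 27.4, 29.6 and 25.2 CPM in autoMACS-Input and 7.75, 11.6, 9.01 and 15.8 CPM in autoMACS-TRAP (-1.23 ± 0.19, adjusted p = 0.016). It differed by -0.04 in Tyto and -0.05 in FACSAria, and both tests of the difference passed (adjusted p = 0.019 and 0.026). Itga4, the alpha chain of the integrin VLA-4, fell by 1.07 after beads and differed by 0.22 and 0.11 after the other sorts (adjusted p of the difference 0.019 and 0.046). Emilin2, an extracellular matrix glycoprotein, passed both tests as well, with -0.57 after beads against 0.52 and 0.84. Vim, the intermediate filament protein vimentin, and Iqgap1, a scaffold of the actin cortex, were called against FACSAria, and the giant scaffold protein Ahnak against Tyto.

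Of the genes called, 8 were more negative after beads against Tyto and all 14 against FACSAria. Spn and Cytip, leukocyte genes named after their values were seen, were in both sets. The 5 genes in the other direction against Tyto, Kif1a, Slc6a9, Aplp1, Gprc5b and Sez6l2, also named after their values were seen, were called lower after Tyto, and only Sez6l2 of them after beads. Aplp1, a neuronal membrane protein, differed by -0.72 after beads and by -3.12 after Tyto. The numbers called against Tyto were 1 without mouse 67 and 52 without mouse 72, and against FACSAria 7 and 18. None of the differences was called when the pairs were not blocked, where 1076 and 1034 genes had an unadjusted p under 0.05 in edgeR. The monocyte list had medians of -2.73, -1.89 and -0.50 after autoMACS, Tyto and FACSAria, with 17, 13 and 8 of 19 genes called lower. The macrophage list had -0.58, -0.08 and -0.05, with 57, 34 and 12 of 165. The test of the difference called 3 of the 19 monocyte genes against each sort. It called 4 macrophage genes against Tyto and 8 against FACSAria, beside 0.103% and 0.111% of all genes. A gene entered this fit with more than 5 counts in every library of any 1 group. Genes kept through autoMACS-Input alone had to be high there, and the part of this in the list medians was not tested. Ribosomal protein genes had -1.03, -0.99 and -0.90, and snoRNA host genes -1.72, -1.29 and -1.09.

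**Figure D4:**
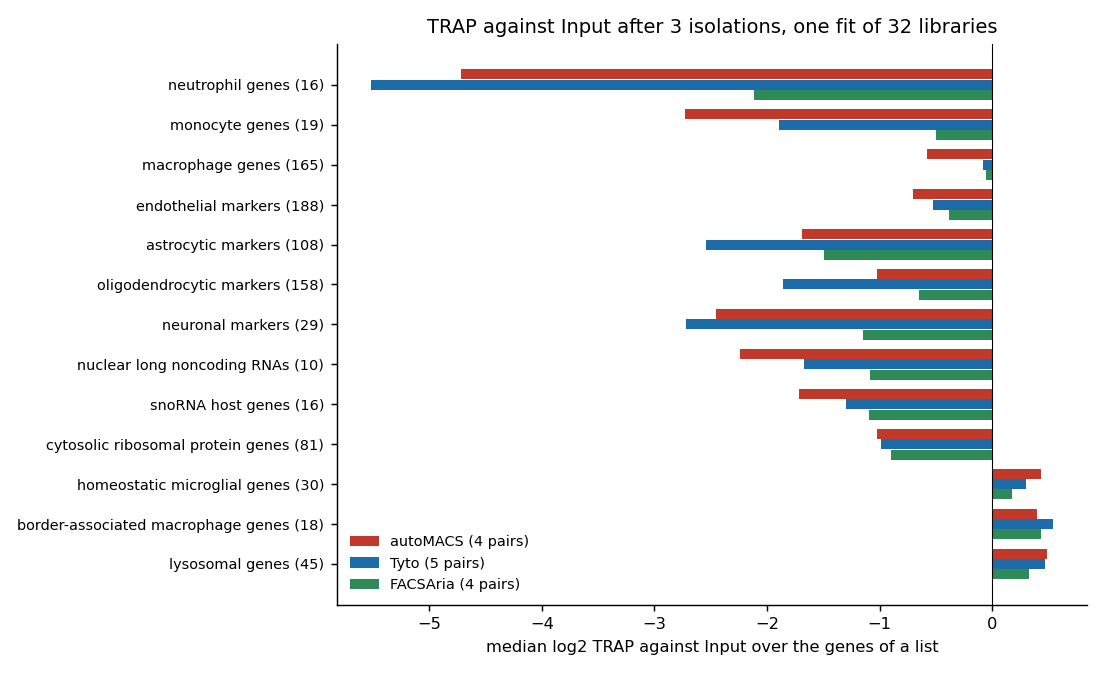
Median log2 TRAP against Input over the genes of each list (number in brackets) after 3 isolations, from one fit of 32 libraries; bars start at 0. Ribosomal protein genes had medians of -1.03, -0.99 and -0.90, and the monocyte list -2.73, -1.89 and -0.50. Genes could enter the fit through the Input of a single isolation, and the part of this in the medians was not tested.

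H2-Eb1 passed the FDR but not the fold in both tests. It differed by -0.70 after beads, -0.04 after Tyto and 0.07 after FACSAria, and the differences of -0.61 (adjusted p = 0.067) and -0.73 (adjusted p = 0.026) were under the fold of 2. The antigen-presentation list as a whole had medians of 0.29, 0.36 and 0.34 after autoMACS, Tyto and FACSAria, and no member was called in either test. Other genes had values closer to each other: the log2 difference after Tyto and FACSAria was -3.84 and -3.35 for Neat1, -1.62 and -1.36 for Rpl32, -1.70 and -1.65 for Fth1, and -1.23 and -1.22 for Tpt1. For these 4 genes the test of the difference to autoMACS was not passed, with adjusted p from 0.39 to 0.98. S100a8 had log2 differences of -7.31 after Tyto and -5.39 after FACSAria, from Input levels of 4.52 to 19.3 CPM and 0 to 6.01 CPM.

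Transcript length was examined in 8226 coding genes of at least 10 CPM, with ribosomal protein genes left out. Spearman's rho across genes between transcript length and the log2 difference was 0.0769, 0.0471 and 0.125 in mice 66, 67 and 72 and -0.410 in mouse 73. Genes of one library are not independent, and no p is given. In mouse 73 the shortest of 5 equal groups had a median difference of 0.20 and the longest of -0.26. In mice 66 and 67 the corresponding medians were -0.03 and 0.00 for the shortest and both 0.05 for the longest. With the length of the coding sequence the shortest group was lowest in mice 66, 67 and 72 (-0.11, -0.07 and -0.14), and in mouse 73 the longest group was (-0.17). The fit over 4 mice averages these directions.

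**Figure D5:**
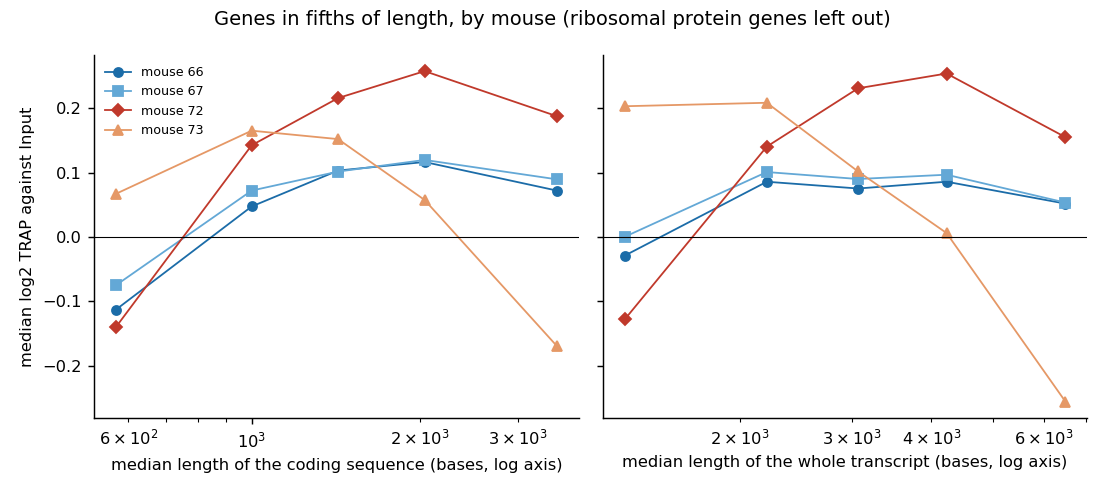
Median log2 TRAP against Input in 5 equal groups of genes by the length of the coding sequence (left) and the whole transcript (right), in bases on a log axis, by mouse. Mouse 73 declines from 0.20 to -0.26 with transcript length, and the other 3 mice do not.

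Ugt1a7c, the only gene of at least 10 CPM called higher, measured 54.2, 51.9, 20.01 and 45.5 CPM in Input and 163, 159, 173 and 171 CPM in TRAP (2.03 ± 0.26, adjusted p = 0.0091). It encodes a glucuronosyltransferase and shares its last exons with 7 other listed genes of the Ugt1a locus (chromosome 1, 88095001 to 88220002, mm10). The share of the locus' counts assigned to Ugt1a7c was 23.55% to 39.96% in the 4 Input libraries and 99.68% to 100.0% in the 4 TRAP libraries, and the other 7 genes were called lower. In Tyto-TRAP the share was 42.5% and 43.75% in the libraries 822R and 823L and at least 99.57% in the other 3. Summed over the locus the difference was 0.51 ± 0.15 (adjusted p = 0.084) and was not called, so the single-gene values are uncertain. The other gene called higher, Fbxo40, lay at 0 to 0.27 CPM in Input and 0.71 to 1.10 CPM in TRAP, and it was named after its values were seen. Across all genes 29 of the 882 called lower overlap another listed gene on the same strand, for which counts could be split between genes.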

How the data were processed

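RNA-seq libraries were poly(A)-selected and stranded. The authors aligned reads to mm10 in Strand NGS with directional alignment, removed duplicates, and deposited 2 values per gene: estimated counts, often not whole, and log2 values normalized with DESeq2 and centred on tissue Input, which were used only in one limma alternative. Estimated counts were rounded. Genes with more than 5 counts in every library of 1 group were fitted in edgeR 4.0.16 (R 4.3.3, TMM, quasi-likelihood) with mouse as a block, since Input and TRAP shared a homogenate; deviations from group means correlated at 0.432, 0.33, -0.155 and -0.0642 within mice 66, 67, 72 and 73, and at 0.531 between Input 72 and TRAP 73. Calls required more than a 2-fold change and a Benjamini-Hochberg adjusted p below 0.1, after the study's thresholds. limma 3.58.1 and DESeq2 1.42.0 served as alternatives. CPM used TMM-scaled library sizes, and the standard errors cover the spread between mice. On simulated counts for 11820 genes, 94% of 50 genes changed by -1.5 on the log2 scale and 96% by 1.5 were recovered. The simulation had no effect of the mouse and no library that stood apart as Input 72 did. It therefore does not give the recovery in these data. Named genes were the largest changes of at least 10 CPM, the extremes of each list and a fixed set. Results of some further genes are not reported here. Members, lists and tests were chosen with earlier results of these data known.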

Additional observations from a re-analysis of the deposited data

Results flagged for a closer look

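In groups of 4 mice, 35 of 212 levels had a highest or lowest library whose gap to its nearest neighbour exceeded Dixon's critical share of the range. For independent, normally distributed levels chance would give about 1 in 20. These levels come from the same libraries and the summed lists contain some of the genes, so that share is no yardstick here. All 21 in Input were mouse 72. Input 72 was the highest library for Malat1 (6043 CPM), Neat1 (2082), Nr4a1 (981), Eif5b (660.9), Atf4 (435.3), Il1b (306.7), Tnf (229.2), Gas5 (165.7), Ap1s3 (105.6), Cxcr2 (82.65) and Snhg12 (32.23). It was the lowest for Eef1a1 (3076 CPM), Ctsb (1630) and P2ry12 (1301). Of summed lists it was highest for SR splicing factors (11430 CPM), nuclear long noncoding RNAs (9509), histone genes (615.9), snoRNA host genes (470.5) and neuronal markers (226.0), and lowest for lysosomal (43070) and complement genes (13720).

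In TRAP, 8 such levels were highest in mouse 73: Malat1 (443.3 CPM), Neat1 (254.7), Gas5 (44.4), Snhg12 (11.37) and Ap1s3 (6.136), and the summed nuclear long noncoding RNAs (941.0), snoRNA host genes (124.7) and pericyte genes (22.3). Mouse 72 was highest for Il1b (113.5 CPM), Ngp (3.147) and red blood cell genes (62.79), and mouse 67 for Cd74 (525.2 CPM), border-associated macrophage genes (3192) and complement genes (24330).

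The log2 difference of TRAP against Input differed between isolations, by the interaction test in edgeR, for genes already named. Against Tyto the autoMACS value minus the Tyto value was -1.697 for Itgal, -1.243 for Itga4, -1.148 for Cxcr4, -1.048 for Emilin2 and -1.046 for Ahnak. Against FACSAria the corresponding values were -2.312 for Itgal, -1.374 for Emilin2, -1.13 for Cxcr4, -1.127 for Itga4, -1.121 for Iqgap1 and -1.08 for Vim.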

How the results depend on the processing

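Against 2 genes called higher and 882 called lower, 3 and 1000 were called without the replicate block. The DESeq2 Wald test called 4 higher, limma on the deposited log2 values 5, and limma-voom with library weights, added after the data were seen, 9. With at least 10 counts in every library, which tests fewer genes, 1 was higher and 370 lower; in the fit of 32 libraries 4 and 1402; at an FDR under 0.05, 1 and 446; without the fold threshold, 636 and 1524. Summing overlapping genes to loci, also added, left 1 higher. Leaving out 1 mouse gave 1 to 3 higher and 208 to 892 lower, and leaving out mice 72 and 73 together 8 higher, with 1 residual degree of freedom. Of 167 genes of at least 10 CPM called lower, 120 were also called without mouse 72, among them 43 of 43 ribosomal protein genes, 18 of 25 genes of other cell types and 59 of 99 others. The cause of these changes was not tested.

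After Tyto 1348 genes were called in either direction and 341 with at least 10 counts in every library; after FACSAria 834 and 221. The difference between autoMACS and Tyto had 13 calls, 7 with at least 10 counts, 0 without the block and 1 to 52 with 1 autoMACS mouse left out. The difference to FACSAria had 14, 0 without the block, 7 to 18 with 1 mouse left out and 23 without mice 72 and 73. Unadjusted p values under 0.05 without the block numbered 1076 and 1034 in edgeR.

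Over 75 named genes, 1055 of 1115 values kept direction and side of the threshold. All 27 called genes kept their direction, and 13 lost the call somewhere, 12 without mouse 66 and 11 without mouse 67. The sign changed in 4 genes near 0. Tnf was 0.1087 without mouse 72 (leaving out 1 mouse at a time, -0.2793 to 0.1087), 0.09809 without mice 72 and 73 and 0.05106 with library weights. Jun was 0.01887 without a filter and -0.09622 to 0.0203 with 1 mouse left out. Cst3 was -0.0375 with at least 10 counts, -0.02194 in limma and -0.08351 to 0.07702 with 1 mouse left out. Csf3r was -0.02645 with at least 10 counts, -0.01121 in limma and -0.01467 to 0.1015 with 1 mouse left out. List medians changed sign in 6 of 31 lists: oxidative phosphorylation, SR splicing factors, disease-associated microglia, integrated stress response, interferon-stimulated genes, and lymphocyte genes. Input depth of 7129464 counts limits rare genes in mouse 72.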

Other observations

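Grouped by annotated compartment, a grouping chosen after the values were seen, genes of at least 10 CPM passed the FDR upwards in unequal shares. Of 174 lysosome genes 21.26% passed the FDR upwards, of 610 endoplasmic reticulum genes 17.87% and of 252 genes of the extracellular region 16.67%, beside 7.495% of all 8419 such genes. The shares were lower for 605 Golgi genes (9.256%), 1045 plasma membrane genes (9.761%) and 1625 genes of integral membrane components (11.02%). Medians were 0.27, 0.20, 0.16, 0.14, 0.13 and 0.16 for these 6 groups in that order, against 0.07. Genes of the extracellular region also passed downwards in 9.524%, beside 8.742% of all such genes. The 3094 genes annotated to the nucleus had a median of 0.06, with 6.464% upwards and 7.369% downwards. In lysosome genes mouse 72 (0.57) lay above mice 66, 67 and 73 (0.14, 0.19 and 0.21).

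Noncoding transcripts (376 tested, annotated as miscellaneous RNA) were called lower in 23.94% and protein-coding genes (11570 tested) in 6.724%. Ap1s3, an adaptor protein gene at 105.6 CPM in Input 72 and 6.38 to 15.8 CPM in the other Input libraries, was called at -2.94 (adjusted p = 0.061), and at -1.93 without mouse 72. Mllt11, a small protein known from neurons, was called at -1.05 (adjusted p = 0.070), and was at -0.70 without mouse 72. Cst3, the cystatin of microglia, did not pass (0.00 ± 0.10, adjusted p = 0.98).

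The predicted gene Gm20594, outside the naming rule and named after its values were seen, measured 113, 121, 76.9 and 126 CPM in Input and 1.58, 2.95, 4.99 and 3.59 CPM in TRAP, a log2 difference of -5.09 ± 0.34 (edgeR adjusted p = 0.0029). The Y-linked and X-linked check genes were not tested between fractions; Xist, a nuclear RNA, lay at 590 and 162 CPM in Input of mice 72 and 73 and at 6.35 and 56.07 CPM in TRAP.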
